A study of Mus musculus with 6 samples.

Results

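The nuclear genes that encode subunits of mitochondrial complex I were followed in the hearts of obese mice given Tributyrin or vehicle. Members were the protein-coding mouse genes whose symbol begins with *Nduf*, goes on with a, b, c, s or v and a number, and does not name an assembly factor. This rule gave 37 genes of the 54232 gene entries in the count tables. All 37 were present in every table and all 37 passed the filter on low counts that kept 14133 genes. The study asked how butyrate acts on the heart in diet-induced obesity. Heart ventricle RNA was sequenced from 6 wild-type C57BL/6J mice, 3 in each group, and every mouse had been fed western diet (WD) for 15 weeks. The WD + Tributyrin mice were then needle-fed Tributyrin, a triglyceride that releases butyrate, at 5 g/kg for 3 weeks, while the WD + PBS mice received the vehicle, which the labels name PBS. Age and sex of the single mice were not given in the sources used here, *Xist* was at most 0.237 CPM and Y-linked genes summed to 144 to 168 CPM in every library, and no group on normal chow was part of the RNA data.

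Complex I, or NADH:ubiquinone oxidoreductase, is the entry point of electrons from NADH into the mitochondrial respiratory chain, and it pumps protons across the inner membrane while it passes those electrons to ubiquinone. Its matrix arm holds the N module, which oxidizes NADH, and the Q module, which reduces ubiquinone, and its membrane arm holds the proton pumps. The core of the matrix arm is encoded in the nucleus and the core of the membrane arm in mitochondrial DNA, and many accessory subunits, all nuclear, surround both. Heart muscle is among the tissues richest in this complex, as it runs almost entirely on oxidative phosphorylation.

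Library totals lay between 20369746 and 32734485 counts. The 37 genes together held 1.14%, 1.14% and 1.12% of the counts in the WD + PBS mice and 1.18%, 1.06% and 1.21% in the WD + Tributyrin mice. Single members held between 313 counts and 37197 counts in a library, so that counting error alone gave a relative SD of at most 5.65%. The labelled tissue was checked by its markers. The summed level of 11 ventricular cardiomyocyte markers lay between 74889 and 78259 CPM, counts scaled to 1 fixed total per library, over the 6 libraries, and none of these markers was at 0. The summed level of 7 atrial markers was 66.0 to 200.4 CPM in the WD + PBS mice and 33.6 to 68.8 CPM in the WD + Tributyrin mice. Mitochondrially encoded genes took 23.6% to 26.5% of the counts in the WD + PBS mice and 25.9% to 28.8% in the WD + Tributyrin mice, and the part of either difference in the results below was not tested.

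The members were expressed at very unequal levels. Levels between genes are given as TPM, counts divided by transcript length and scaled to the same total in every library, as means over the 6 libraries. The median member stood at 581 TPM. *Ndufa4*, a small membrane subunit that has since been placed in complex IV, was highest at 1956 TPM. *Ndufb10*, an accessory subunit of the distal membrane arm, stood at 1083 TPM. At the low end stood *Ndufb2* at 16.1 TPM, *Ndufa4l2* at 28.2 TPM and *Ndufb4* at 35.9 TPM. The 8 genes of the N module spanned 203 to 899 TPM, 4 genes of the Q module 415 to 676 TPM, the 3 at the junction of the arms 421 to 735 TPM, the 9 of the proximal membrane arm 130.4 to 827 TPM and the 10 of the distal membrane arm 16.1 to 1083 TPM. The order depended on the length used, since with all annotated exonic bases as length the ranks of the 37 genes correlated with the first ranks at a Spearman rho of 0.716. The annotated length of *Ndufb2* was 4371 bases, which lowers its TPM. Reads from *Ndufb4* and *Ndufs5* could be lost to near-identical copies, as 18.3% and 21.7% of their 50-base windows also occur in another gene, chiefly a processed pseudogene with at most 9 and 49 counts in a library.

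**Figure D1:**
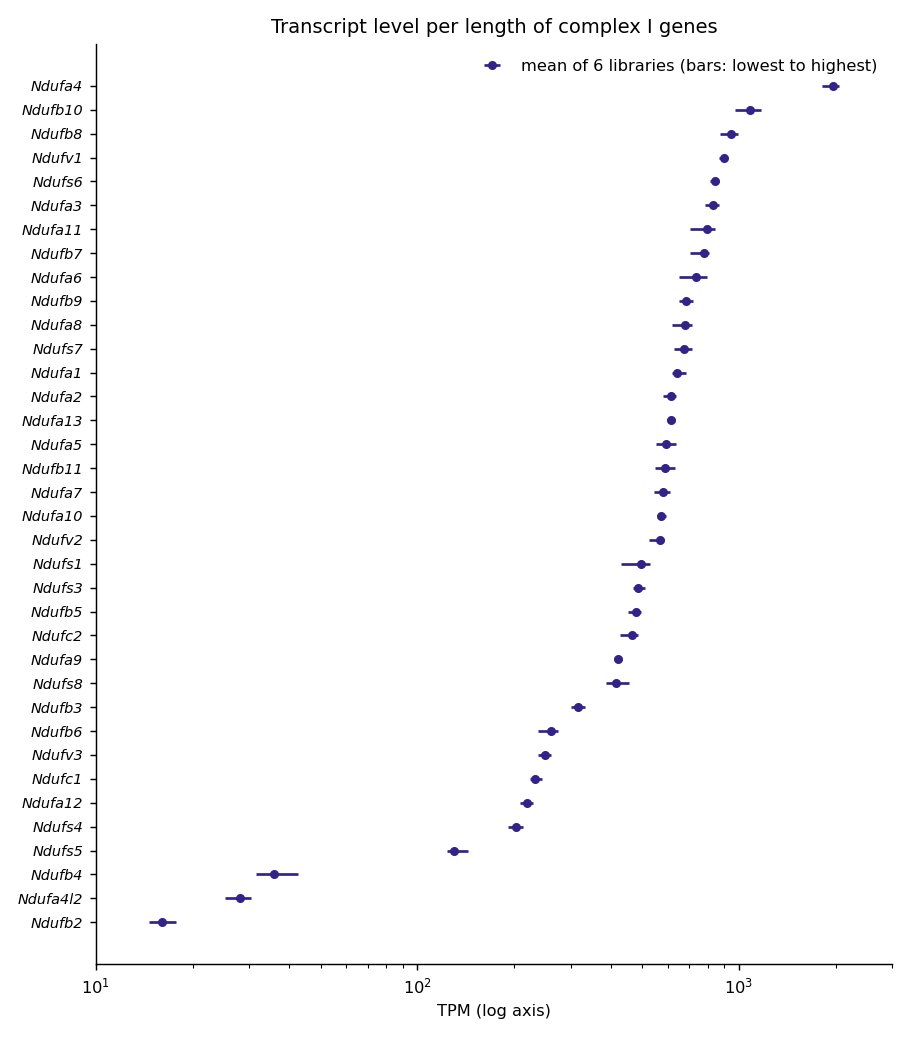
Transcript level of 36 of the 37 complex I genes in TPM on a log axis, with points at the mean of the 6 libraries and bars from the lowest to the highest library. Levels run from 16.1 TPM for *Ndufb2* to 1956 TPM for *Ndufa4*, and the spread over libraries is small beside the spread over genes.

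Promoters were read to see what the members share in sequence. RefSeq promoter entries of 300 bases, 250 of them before the start site, on GRCm38.p6 matched 32 of the 37 members and gave 34 promoters, and *Ndufs1*, *Ndufb9*, *Ndufa2* and *Ndufa4l2* were among those with no entry. The letters CGCANGCGC, the core of the site bound by NRF-1, a regulator of nuclear genes for mitochondrial proteins, occurred on either strand in 10 of the 34 promoters (29.4%) and in 6.31% of all 32851 promoters. These 10 belonged to 9 genes, *Ndufa5*, *Ndufa6*, *Ndufa8*, *Ndufa11*, *Ndufa12*, *Ndufb4*, *Ndufb10*, *Ndufs5* and *Ndufs6*. The YY1 letters AAGATGGCG occurred in 5 promoters (14.7%) against 1.40% of all, in each case after the start site, where these letters, which contain ATG, could also belong to the start of the reading frame. The GABP/ETS letters CCGGAAGT occurred in 1 promoter (2.94%) against 3.89%, and the ERR letters TCAAGGTCA in none of the 34 against 0.423%. The motifs were searched on both strands, and no overlap between different motifs was resolved. The median GC content was 59% in member promoters and 52.7% in all. A match is a run of letters and was not tested for binding. Stretches of 150 bases that lie before both the RefSeq and the GENCODE start are shown for *Ndufb4*, which had the largest fold change, *Ndufs5* and *Ndufa1*, which had the smallest p-values of the membrane arm, and *Ndufa11*, whose fold change was nearest to 0. Their positions are chr16:37654454-37654603 on the minus strand, chr4:123718203-123718352 on the minus strand, chrX:37191239-37191388 on the minus strand and chr17:56717612-56717761 on the plus strand, each printed 5′ to 3′ along the gene, and capitals mark the NRF-1 letters, which *Ndufa1* lacks in this window. The GENCODE start lies 85 bases before the RefSeq start for *Ndufb4* and 16 bases before it for *Ndufs5*, and the stretches end there. Another 2 matches of *Ndufb4*, at -78 and -21 from the RefSeq start, are therefore not shown.
*Ndufb4*: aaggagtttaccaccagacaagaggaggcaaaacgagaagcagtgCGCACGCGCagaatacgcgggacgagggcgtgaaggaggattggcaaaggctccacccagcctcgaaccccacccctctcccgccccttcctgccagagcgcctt
*Ndufs5*: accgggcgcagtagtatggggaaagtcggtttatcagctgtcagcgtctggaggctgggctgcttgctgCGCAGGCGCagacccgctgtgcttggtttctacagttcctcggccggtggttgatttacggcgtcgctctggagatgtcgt
*Ndufa1*: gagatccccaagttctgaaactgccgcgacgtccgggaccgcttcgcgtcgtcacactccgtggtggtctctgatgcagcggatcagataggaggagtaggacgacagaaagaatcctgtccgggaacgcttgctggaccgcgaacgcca
*Ndufa11*: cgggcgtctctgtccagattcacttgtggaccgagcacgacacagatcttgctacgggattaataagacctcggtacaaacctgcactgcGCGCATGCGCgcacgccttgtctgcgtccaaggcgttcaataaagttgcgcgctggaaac

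Nuclear complex I genes were compared between WD + Tributyrin and WD + PBS hearts to ask whether their transcripts differed with treatment. No member passed a false discovery rate of 10% or of 5%, in a comparison in which 0% of all 14133 genes passed. By edgeR's quasi-likelihood test, every member had a Benjamini-Hochberg adjusted p of 0.999. Members lay slightly above vehicle on CPM scaled by the trimmed mean of M values (TMM): their median log2 fold change was 0.10, a difference of 7.41%, with quartiles of 0.08 and 0.13, beside a median of -0.0013 and quartiles of -0.10 and 0.08 over all genes tested. The standard errors of the members, from 0.068 to 0.147 with a median of 0.088, were about as large as the differences. The log2 fold change was above 0 for 35 of 37 members, beside 49.6% of all genes. With library size alone as the scale it was above 0 for 29 members, beside 27.5% of all genes, and the medians were 0.03 for the members and -0.07 for all genes. With TPM means it was above 0 for 15 members, beside 19.4% of all genes, and the medians were -0.01 and -0.11. With mitochondrially encoded genes left out of the TPM, it was above 0 for 33 members, beside 36.8% of all genes, and the medians were 0.06 and -0.04. The sign for single members thus depended on the scale. The member median lay 0.10 above the median of all genes on each of these 4 scales. A change of scale shifts all genes of a library nearly alike, so the equal gaps are no separate test of it. In bulk tissue, fewer cells of a type and less RNA per cell cannot be told apart.

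At an unadjusted p under 0.05, edgeR called 1 member higher with Tributyrin, *Ndufa1*, which is 2.7% of the members beside 1.97% of all genes. It called no member lower, beside 2.28% of all genes. DESeq2 without a prior on fold changes also called 1 member at this level, beside 460 of 25581 genes in either direction. The same held for limma-voom with 1 member, beside 605 of 14133 genes. Neither called a member at a false discovery rate of 10%, where DESeq2 passed 11 of all genes and limma-voom 0. The 3 WD + Tributyrin values lay above all 3 WD + PBS values for 1 member, again *Ndufa1*, beside 4.34% of all genes, and below them for no member, beside 4.61%. Both shares of members are thus close to or under those of the whole transcriptome.

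**Figure D2:**
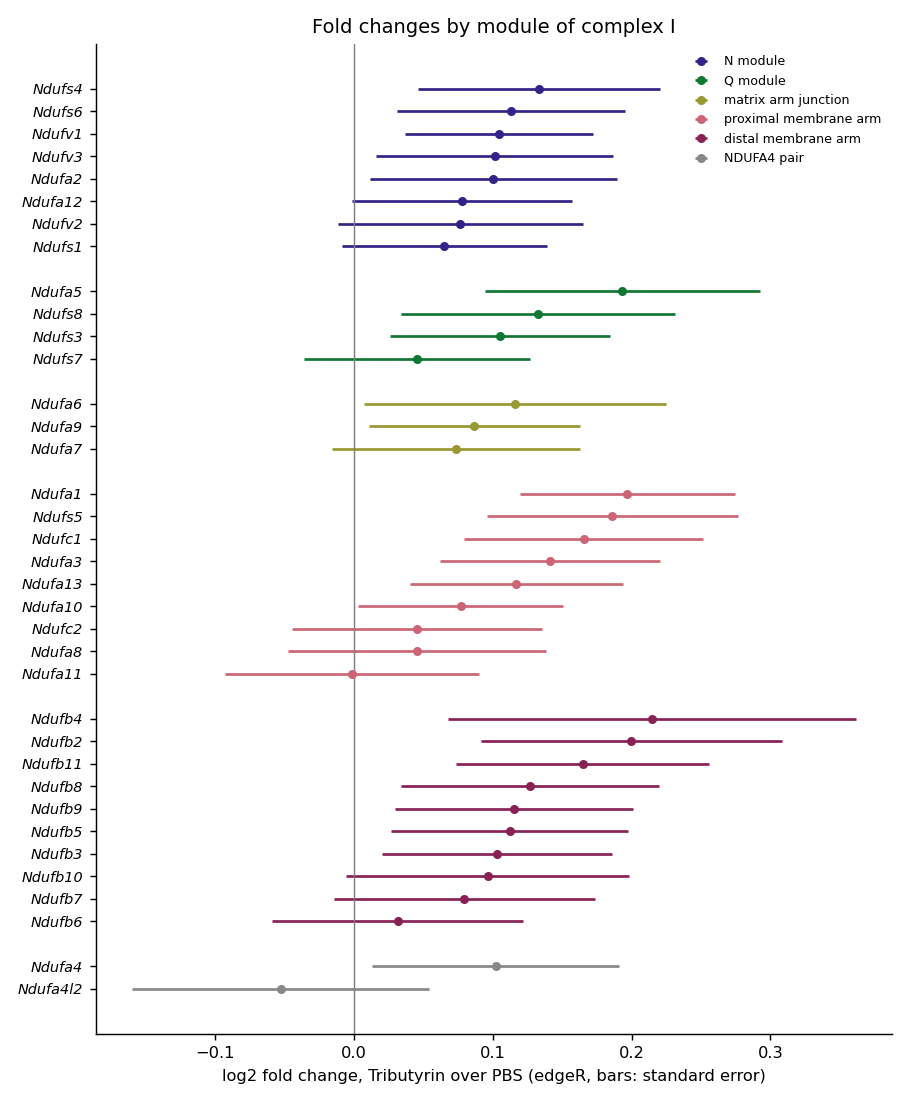
Log2 fold change of 36 of the 37 genes, WD + Tributyrin over WD + PBS, from edgeR with TMM scaling, with bars of 1 standard error and colours for the module of complex I. Values run from -0.05 for *Ndufa4l2* to 0.21 for *Ndufb4*, with 35 of all 37 genes above 0 beside 49.6% of all genes tested (15 beside 19.4% by TPM means), and every adjusted p is 0.999.

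The N module binds NADH and starts the electron path. All 8 of its genes had a log2 fold change above 0, with a median of 0.10, and none passed the test. *Ndufv1* encodes the subunit that binds NADH and the flavin. It stood at 823, 799 and 769 CPM in the WD + PBS mice and 871, 818 and 883 CPM in the WD + Tributyrin mice (log2 fold change 0.10, SE 0.068). The groups overlapped only through Tributyrin mouse 2, which lay just below the highest vehicle mouse. *Ndufv2*, an iron-sulfur subunit beside it, stood at 534, 512 and 518 CPM with vehicle and 559, 481 and 609.8 CPM with Tributyrin (0.08, SE 0.088). Here Tributyrin mouse 2 was the lowest of all 6 mice and Tributyrin mouse 3 the highest. *Ndufs1*, the largest subunit, which carries further iron-sulfur clusters, stood at 738, 688 and 720.2 CPM with vehicle and 804, 739 and 701 CPM with Tributyrin (0.07, SE 0.074). It was the one member for which Tributyrin mouse 3 did not exceed every vehicle mouse. *Ndufs4*, an accessory subunit whose loss causes a Leigh-like disease, had the largest fold change of the module at 0.13 with an SE of 0.087, and *Ndufs1* the smallest. The accessory subunits *Ndufs6*, *Ndufv3*, *Ndufa2* and *Ndufa12* had log2 fold changes of 0.11, 0.10, 0.10 and 0.08, and each was highest in Tributyrin mouse 3. *Ndufs6*, which holds a zinc ion, ran from 239.7 to 267 CPM with vehicle and from 249.8 to 298 CPM with Tributyrin.

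The Q module passes electrons to ubiquinone. All 5 of its genes lay above 0, with a median log2 fold change of 0.11. *Ndufs3*, a core subunit at which assembly of the module begins, stood at 281, 279 and 255 CPM with vehicle and 291, 269.8 and 317 CPM with Tributyrin (0.11, SE 0.079). Mice 1 and 3 exceeded every vehicle mouse and mouse 2 did not. *Ndufs7*, which carries the last iron-sulfur cluster of the path, stood at 361, 359.5 and 366 CPM with vehicle and 379, 333 and 409 CPM with Tributyrin (0.05, SE 0.082). Its 3 vehicle values were nearly equal and the treated values spread to both sides of them. *Ndufs8*, which holds a pair of clusters, stood at 221, 228 and 213 CPM with vehicle and 236, 210.3 and 279.9 CPM with Tributyrin (0.13, SE 0.099). *Ndufa5*, an accessory subunit of the module, stood at 286, 254 and 265 CPM with vehicle and 318, 261 and 342 CPM with Tributyrin (0.19, SE 0.099), with an unadjusted edgeR p of 0.0786. This was the largest fold change of the matrix arm, and Tributyrin mouse 2 still lay within the vehicle range. At the junction of the arms *Ndufa6*, *Ndufa7* and *Ndufa9* had log2 fold changes of 0.12, 0.07 and 0.09. *Ndufa9*, which helps to hold the arms together, ran from 312 to 341 CPM with vehicle and from 320.2 to 369 CPM with Tributyrin, and the ranges overlapped.

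The proximal membrane arm joins the matrix arm to the first proton pumps. Of its 9 genes 8 lay above 0, with a median of 0.12. *Ndufa1*, an X-linked gene for a small membrane subunit, stood at 145.2, 138 and 135 CPM with vehicle and 165, 145.5 and 169.7 CPM with Tributyrin. All treated mice lay above all vehicle mice, although mouse 2 exceeded the highest vehicle mouse only narrowly. The log2 fold change was 0.20 with an SE of 0.078, the unadjusted edgeR p was 0.0288 and the adjusted p was 0.999. The two-sided exact permutation test over the 6 mice gave p = 0.1, the smallest that 3 against 3 allows. *Ndufs5*, a cysteine-rich subunit facing the intermembrane space, stood at 47.7, 46.7 and 43.8 CPM with vehicle and 55.98, 45.8 and 55.5 CPM with Tributyrin (0.19, SE 0.091), with an unadjusted edgeR p of 0.0664. Mice 1 and 3 were nearly equal here and mouse 2 lay within the vehicle range. *Ndufa11*, an integral membrane subunit, stood at 243, 236 and 239.6 CPM with vehicle and 240.0, 208 and 270.0 CPM with Tributyrin. The group means were the same within their spread (239.5 ± 3.39 and 239 ± 30.9 CPM, SD, n = 3 each), with the treated mice on both sides of the vehicle mice. Its log2 fold change of -0.0013 (SE 0.092) and the 0.21 of *Ndufb4* both came from genes with NRF-1 letters in the stretches printed above, while *Ndufa1* had none there. The other genes of the arm were *Ndufc1* at 0.17, *Ndufa3* at 0.14, *Ndufa13* at 0.12, *Ndufa10* at 0.08, *Ndufc2* at 0.05 and *Ndufa8* at 0.05. *Ndufc1* came nearest to *Ndufa1* and *Ndufs5*, at 147.9 to 159 CPM with vehicle and 151 to 187 CPM with Tributyrin. *Ndufa13*, also known as GRIM-19, ran from 394 to 419.8 CPM with vehicle and from 404 to 474 CPM with Tributyrin. The 9 genes with such NRF-1 letters showed a median log2 fold change of 0.11, and the 23 with a promoter entry but no match had 0.10.

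The distal membrane arm is the far end of the proton-pumping limb and holds the *Ndufb* genes. All 10 lay above 0, with a median of 0.11 and a range from 0.03 for *Ndufb6* to 0.21 for *Ndufb4*. *Ndufb4* stood at 20.7, 16.04 and 17.2 CPM with vehicle and 19.9, 17.4 and 25.4 CPM with Tributyrin (0.21, SE 0.147). The largest fold change of the 37 was thus also the least precise, and it rested on Tributyrin mouse 3, without which it was 0.06. *Ndufb2*, a short accessory subunit, stood at 38.2, 33.5 and 37.3 CPM with vehicle and 42.4, 35.4 and 47.5 CPM with Tributyrin (0.20, SE 0.108). Mice 1 and 3 lay above every vehicle mouse and mouse 2 between them. *Ndufb11*, an X-linked subunit, ran from 275 to 287 CPM with vehicle and stood at 329, 269 and 342 CPM with Tributyrin, with a log2 fold change of 0.16 and an SE of 0.091. The others were *Ndufb8* at 0.13, *Ndufb9* at 0.12, *Ndufb5* at 0.11, *Ndufb3* at 0.10, *Ndufb10* at 0.10 and *Ndufb7* at 0.08. *Ndufb10* showed the widest treated range of these, 384 to 524 CPM, around vehicle values of 414 to 432 CPM. *Ndufb9* shares 19.5% of its exonic bases with a gene on the same strand that was listed at 0 counts in every library. *Ndufb6* lies across another gene on the opposite strand for 39.0% of its exonic bases, and whether the counting used the strand was not given in the sources used here.

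*Ndufa4* and its paralog *Ndufa4l2* were described apart from the modules, because *Ndufa4* is now counted with complex IV and *Ndufa4l2* is its hypoxia-induced relative. *Ndufa4* stood at 671, 619.7 and 624 CPM with vehicle and 713, 598 and 745 CPM with Tributyrin (0.10, SE 0.089). *Ndufa4l2* stood at 14.9, 14.8 and 14.8 CPM with vehicle and 14.05, 12.8 and 16.1 CPM with Tributyrin (-0.05, SE 0.107). The vehicle values of *Ndufa4l2* were almost identical, with an SD of 0.06 CPM, and the treated mice lay on both sides of them. Counting error for this gene reached a relative SD of 5.65%, which is wider, so that closeness is not read as a trait of the vehicle mice. *Ndufa4l2* was the only member besides *Ndufa11* with a log2 fold change below 0, and neither differed by more than its standard error.

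**Figure D3:**
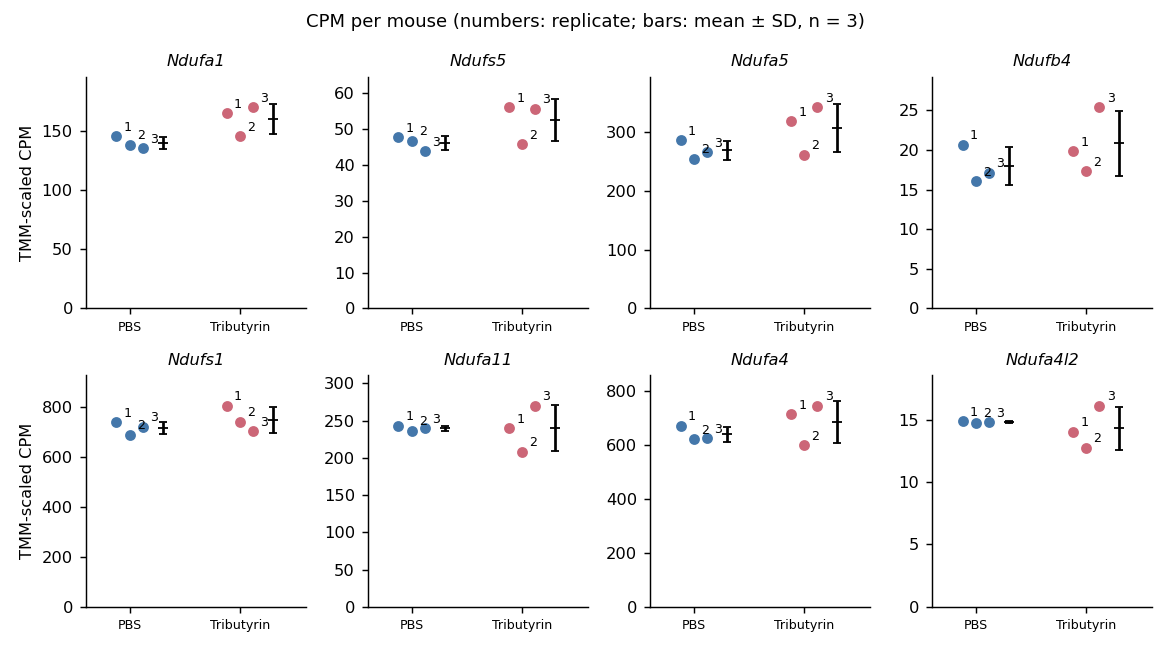
TMM-scaled CPM of 8 named complex I genes in each mouse, numbered by replicate, with the mean and SD of each group of 3 beside the points and axes from 0. Tributyrin mouse 2 is the lowest of the treated mice in 7 of the 8 genes, all except *Ndufs1*, and in 7 of the 8 the treated values reach into or below the vehicle range, *Ndufa1* being the exception.

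The members moved together from mouse to mouse. Each gene's log2 CPM was set against its own mean over the 6 libraries, and the median of these deviations over the 37 members was -0.0034, -0.05 and -0.09 in WD + PBS mice 1 to 3 and 0.07, -0.12 and 0.19 in WD + Tributyrin mice 1 to 3. Tributyrin mouse 3 was thus the highest library and Tributyrin mouse 2 the lowest, with the vehicle mice between them. Mouse 3 held the highest value of 35 of the 37 members, beside 21.9% of all genes tested, and *Ndufs1* and *Ndufs5* were highest in Tributyrin mouse 1. Tributyrin mouse 2 held the lowest value of 21 members. Tributyrin mouse 1 exceeded every vehicle mouse for 32 members (28.3% of all genes tested) and Tributyrin mouse 3 for 36 (29.5%), while Tributyrin mouse 2 lay below every vehicle mouse for 21 (25.4%). The SD of log2 CPM was larger with Tributyrin than with vehicle for 37 of 37 members, beside 61.9% of all genes. Its median was 0.05 with vehicle and 0.16 with Tributyrin over the members and 0.12 and 0.16 over all genes. The member median was thus below that of all genes with vehicle and close to it with Tributyrin. The summed level of the 37 genes was 11368, 10975 and 10789.5 CPM with vehicle and 12025, 10651 and 12819 CPM with Tributyrin, or 11044 ± 295 and 11832 ± 1096 CPM (SD, n = 3 each). These 37 values per mouse are not independent of one another, since they come from the same RNA and share its scaling.

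**Figure D4:**
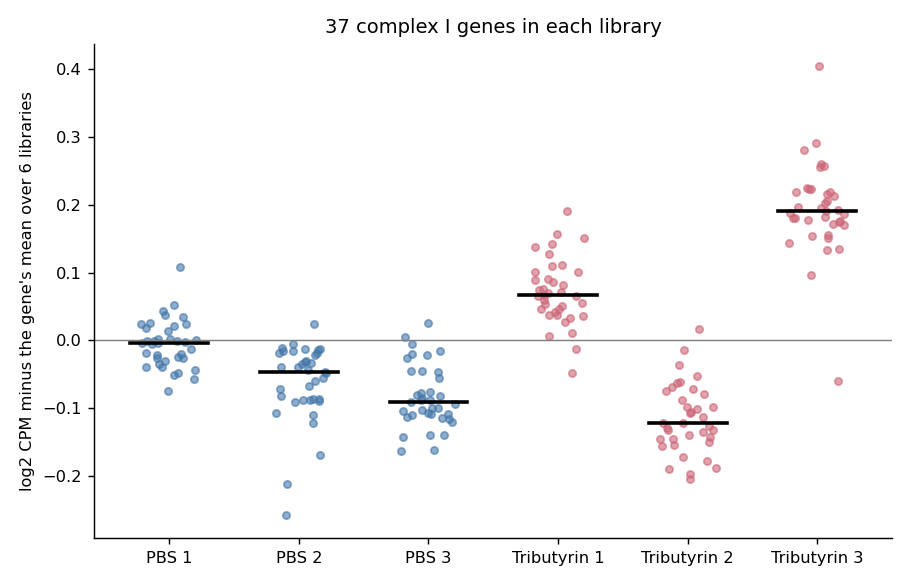
Log2 CPM of the 37 genes in each library as the deviation from each gene's own mean over the 6 libraries, with each point a gene and the black line the median. The medians are 0.07, -0.12 and 0.19 in the 3 WD + Tributyrin mice, and they enclose those of the 3 WD + PBS mice.

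The number of members with an unadjusted p under 0.05, 1 with all 6 mice, changed when single mice were left out, and most without Tributyrin mouse 2. Without Tributyrin mouse 2, 25 of the 37 members did, all higher, beside 4.7% of all genes tested, the median log2 fold change was 0.18 and all 37 lay above 0. The smallest p of a member was then 0.0017 for *Ndufb11*, and its adjusted p by edgeR was 0.376, so none passed the false discovery rate. *Ndufa5* and *Ndufa1* came next with unadjusted edgeR p-values of 0.0025 and 0.0028. Tributyrin mouse 2 was the lowest of the 6 mice for 21 members. Leaving it out was thus bound to raise the treated levels of most members, so these p-values are no separate test. Without Tributyrin mouse 3, none of the 37 reached 0.05, the median was 0.04 and 27 lay above 0. Without Tributyrin mouse 1, WD + PBS mouse 2 or WD + PBS mouse 3 none reached 0.05 either, and *Ndufa1* was then not called. Markers of some other cells, though not of all, also differed between Tributyrin mouse 2 and Tributyrin mice 1 and 3. The summed level of fibroblast markers was 960.1 CPM in mouse 2 and 776 and 788 CPM in mice 1 and 3. That of macrophage markers was 128 CPM against 97.5 and 103 CPM, and that of erythroid markers 383 CPM against 941 and 502 CPM. The erythroid levels of mice 1 and 3 were themselves far apart. Mouse 2 lay between mice 1 and 3 for endothelial markers (978 CPM) and for smooth muscle and pericyte markers (838 CPM). The same held for skeletal muscle and ventricular markers, while its atrial, Schwann and adipocyte levels were above both. Fibroblast and macrophage levels of mouse 2 lay within the range of the vehicle mice, and the part of these markers in the count of members was not tested.

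Other genes of the respiratory chain were read in the same way. The 39 nuclear genes of complexes II to V that were tested, listed for this purpose, were all above 0, the median log2 fold change being 0.12, and 0 passed a false discovery rate of 10% by edgeR. At an unadjusted p under 0.05, 3 of the 39 were higher, among them *Cox6a2* (0.19, SE 0.073) and *Cox7a2* (0.19, SE 0.077) of complex IV. Their median deviations by library were -0.0048, -0.08 and -0.07 with vehicle and 0.09, -0.11 and 0.19 with Tributyrin, in the same order among treated mice as the complex I genes. Of the 77 mitochondrial ribosomal protein genes tested, 65 lay above 0, with a median of 0.08. The pattern was therefore not particular to complex I. With library size alone as the scale, where 27.5% of all genes lay above 0, 32 of the 39 and 40 of the 77 lay above 0.

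Other nuclear subunits of complex I that the symbol rule leaves out include *Ndufab1*, the mitochondrial acyl carrier protein, and *Ndufb1-ps*, the mouse counterpart of the human gene for subunit B1. *Ndufab1* had a log2 fold change of 0.08 with an SE of 0.081. *Ndufb1-ps* stood at 134.9, 110.1 and 117 CPM with vehicle and 152, 124 and 160.6 CPM with Tributyrin, with a log2 fold change of 0.27, an SE of 0.109 and an unadjusted edgeR p of 0.0324, and the groups overlapped. Of the 7 complex I genes in mitochondrial DNA, *mt-Nd1*, *mt-Nd2*, *mt-Nd4*, *mt-Nd5* and *mt-Nd6* had log2 fold changes of 0.16, 0.21, 0.26, 0.17 and 0.20. *mt-Nd2* and *mt-Nd4* had unadjusted edgeR p-values of 0.0238 and 0.0229, and none passed the adjusted test. *mt-Nd4l* was listed at 0 counts in every library and *mt-Nd3* at 0 to 53 counts, as were 4 further mitochondrial genes at or near 0, among them *mt-Co2*, which every heart cell uses. Those entries say nothing of expression and no fold change is given for them.

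Assembly factors, which build the complex and then leave it, had a smaller median. Of 20 tested, 17 lay above 0, with a median log2 fold change of 0.05, and on library size alone 7 did, beside 27.5% of all genes. None passed an unadjusted p of 0.05 by edgeR. *Ndufaf5*, a factor that modifies *Ndufs7*, had the highest value at 0.23 (SE 0.111) and *Ndufaf6* the lowest at -0.05 (SE 0.110). The 12 regulators of mitochondrial gene expression were divided, 6 above 0 and 6 below, with a median of -0.0012 and none at an unadjusted p under 0.05. *Ppargc1a*, which encodes the coactivator PGC-1alpha, had 0.12 (SE 0.124) and its relative *Ppargc1b* -0.29 (SE 0.200). *Nrf1*, which encodes the NRF-1 factor whose letters are printed above, had 0.03 (SE 0.108). Ventricular cardiomyocyte markers were above 0 for 9 of 11 with a median of 0.05. Their median deviation was 0.15 in Tributyrin mouse 3 and -0.04 in Tributyrin mouse 2, so that it lay above every vehicle mouse in mouse 3 and within the vehicle range in mouse 2. Their summed level in these 2 mice was 78259 and 78197 CPM, both above every vehicle mouse on the TMM scale. That order depends on the scale, as the scaled total was 0.945 of the raw total in mouse 3 and 1.001 to 1.04 in the vehicle mice. On library size alone 4 of the 11 markers lay above 0, with a median of -0.02. The 6 atrial markers tested were all below 0 with a median of -1.90, 5 of them at an unadjusted edgeR p under 0.05 and none past the adjusted test. Fibroblast markers were above 0 for 2 of 7 with a median of -0.30, and their summed level was 866 to 978 CPM with vehicle and 776 to 960.1 CPM with Tributyrin. The medians of endothelial, smooth muscle and macrophage markers were 0.04, 0.10 and -0.06. The part of any of these lists in the complex I values was not tested.

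**Figure D5:**
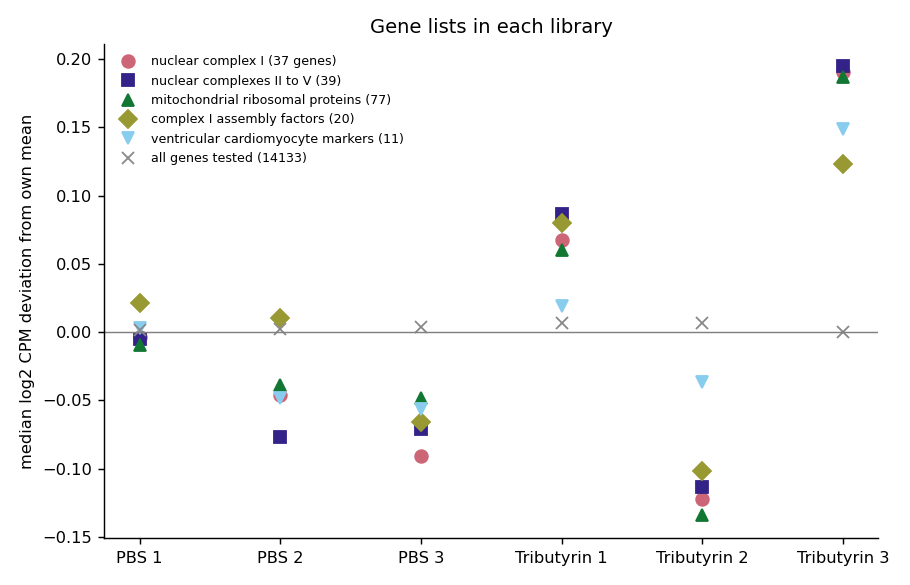
Median deviation of log2 CPM from each gene's own mean in each library, for the 37 nuclear complex I genes, the 39 genes of complexes II to V, 77 mitochondrial ribosomal protein genes, 20 assembly factors, 11 ventricular cardiomyocyte markers and all genes tested. The lists are highest in Tributyrin mouse 3, at 0.19 for complex I and 0.19 for complexes II to V, and the mitochondrial lists are lowest in Tributyrin mouse 2, while the median of all genes stays near 0.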

How the data were processed

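RNA was prepared from heart ventricle and made into stranded mRNA libraries. Before deposit the authors trimmed adapters (cutadapt 1.13, per the labels), aligned reads to mm10 with STAR and counted reads per gene with HTSeq 0.6.1p1, and the values used here are the raw gene counts that the authors deposited, whole numbers without normalization. Which annotation release and which strand setting HTSeq ran with is not given in the sources used here. Members and lists were chosen with earlier results of these data known. Gene IDs were matched to GENCODE M21 (54165 of 54232 matched, 67 did not), and no entry named anything but a gene. Another 3 genes matching the symbol pattern are processed pseudogenes and were left out.

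Groups followed the sample titles, which number the mice, 3 per group. That they are separate mice is what the titles state, and p-values measure the spread between these samples. Genes were kept by filterByExpr (minimum count 10, minimum total 15), scaled by TMM and tested with edgeR 4.0.16 (R 4.3.3) (quasi-likelihood F-test), and p-values were adjusted over all 14133 genes by the Benjamini-Hochberg method. CPM are TMM-scaled. TPM used the annotated length of 1 principal transcript per gene. A single gene was also tested by a two-sided exact permutation test of the group means, whose smallest p is 0.1. DESeq2 1.42.0, limma 3.58.1 (voom), other scalings, other filters and leaving out each mouse were alternatives. Named were the core subunits, *Ndufa4* and *Ndufa4l2*, the members with the highest and lowest TPM, the 3 largest and up to 3 negative log2 fold changes, and the 3 smallest p-values. The values of 1 gene are not reported here, though it enters the counts and medians. The fits were tested on simulated data with log2 fold changes larger than that of any member in the reported fit. That test therefore does not cover changes of the members' size. Library totals of 20369746 to 32734485 limit precision less than the spread between mice does. Promoters came from RefSeq, GRCm38.p6.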

Additional observations from a re-analysis of the deposited data

How the results depend on the processing

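The count of members past a false discovery rate of 10% or 5% was 0 under every other scaling, filter, tool and leave-one-out fit tried. Of all genes, 0 to 167 passed 10% in these fits, the 167 without the filter. The median log2 fold change was 0.04 to 0.18 over the leave-one-out fits and 0.03 on library size alone. In these fits its shift from the reported 0.10 was smaller than 0.116, the SD over the 6 libraries of the members' median deviation. That SD is larger than the reported median itself, so a fall to 0 would also have been smaller. The comparison therefore cannot show that the median is stable. TPM means were chosen after seeing the data. With them the median was -0.011 and 15 members lay above 0, beside -0.11 and 19.4% for all genes tested. The gap between the medians was 0.10 as in the reported fit, which a change of scale could hardly alter. The count at an unadjusted edgeR p under 0.05 was 1 in the reported fit, beside 1.97% of all genes higher and 2.28% lower. It was 5 without the filter, beside 1178 of 25581 genes, and 0 on library size alone, beside 797 of 14133. Over the leave-one-out fits it was 0 to 25, beside 389 to 1359 genes, the 25 and the 1359 both without Tributyrin mouse 2. These gene counts hold both directions. The cause of these shifts was not tested. The count of members whose groups did not overlap, 1 as reported, was 0 with DESeq2-type size factors and 2 without the filter. It was 2 with scaling that left out mitochondrially encoded genes. Over the leave-one-out fits it was 1 to 31 higher, with 0 to 1 lower. Groups of fewer mice separate more easily. The share of all genes without overlap in these alternative fits is not given here, so the counts are not read as a result on the members. The deviations of same-numbered mice correlated at 0.307, 0.0712 and -0.00655. Different-numbered mice were not compared, so whether the replicate numbers pair the mice is not settled. With the replicate number as a block 3 members had an unadjusted edgeR p under 0.05, beside 731 of 14133 genes in either direction. Of 240 alternative values for the 15 named genes 230 kept their direction and 10 reversed. The largest reversed value was 0.090 for *Ndufa11* without Tributyrin mouse 2, beside its SE of 0.092 in the reported fit. TPM means are not among these 240 values. *Ndufs1* came to -0.0058 and *Ndufs7* to -0.030 on library size alone. *Ndufa11* came to 0.0029 with scaling that left out mitochondrially encoded genes and 0.0026 without the filter. Without 1 mouse, *Ndufa11* ranged from -0.094 to 0.090, *Ndufa4l2* from -0.14 to 0.025, *Ndufv2* from -0.0012 to 0.16 and *Ndufs7* from -0.021 to 0.12. By TPM means more of the named genes reversed, and *Ndufv1*, *Ndufv2*, *Ndufs1*, *Ndufs3*, *Ndufs7* and *Ndufa4* were lower with Tributyrin. *Ndufb2*, *Ndufb4*, *Ndufa1*, *Ndufa5*, *Ndufs5* and *Ndufs8* stayed higher by TPM means, and *Ndufa11* and *Ndufa4l2* stayed lower. Without the 10 members that share sequence or overlap a gene on their strand, 27 remained and the median was 0.10.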
